A study of Zea mays with 4 samples.

Results

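The 40 Mb of maize chromosome 6 from 10 to 50 Mb held 411 peaks of P1 chromatin immunoprecipitation sequencing (ChIP-seq) in the first duplicate and 280 in the second. Peaks were taken by position alone, with a midpoint at or above 10 Mb and below 50 Mb, and the duplicates were kept apart. They are 411 of 20424 peaks in list 1 and 280 of 14719 in list 2, or 691 of 35143 in all. The stretch had been picked out as sparse in peaks. That description did not hold for the stretch as a whole and held for its first 10 Mb, so the stretch is named here by its position. The members were chosen by their measured position, and the stretch for the density of its peaks, so densities and gaps are descriptions and carry no test.

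P1, encoded by pericarp color1, is a MYB-class transcription factor that switches on flavonoid genes such as colorless2 (chalcone synthase) and anthocyaninless1 (dihydroflavonol reductase). In the pericarp, the maternal layer around the kernel, it is known for the red phlobaphene pigments. ChIP-seq recovers DNA bound by a protein with an antibody and counts the fragments along the genome. A peak is a place where fragments pile up over a control. Chromosome 6 of maize is known for the nucleolus organizer on its short arm, where the ribosomal RNA genes lie in tandem. The lists hold no gene positions, so no gene or repeat is assigned to any peak or gap here.

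All 4 libraries came from peeled pericarp at 14 days after pollination and were precipitated with polyclonal P1 antibodies (alphaP1344). The 2 P1-rr libraries came from plants that express P1, and the 2 P1-ww libraries from near-isogenic plants that do not. The P1-rr allele of stock 65-CFS-305, which also holds the P2 gene, had been crossed into inbred A619, a P1-ww line without P2, over 6 backcross and 3 selfing generations. The P1-rr line therefore differs from P1-ww by donor DNA at 35 to 66 Mb of chromosome 1 and at 89 to 102 Mb of chromosome 6. Peaks at 89 to 102 Mb were left out of the rest of chromosome 6, with which the stretch is compared. They were kept in the rankings of blocks and gaps and in the shares over all peaks. List 1 comes from the libraries numbered 1 of both genotypes, with P1-ww as the control, and list 2 likewise from those numbered 2. Each list is a single contrast of 1 library against another, the lists give no reads, and the depth is unknown. The question of the study was which sites P1 occupies directly. For the stretch, the question was where enriched sites are found, where they are missing, and whether the duplicates place both alike.

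Over its whole length the stretch was not poorer in peaks than the rest of chromosome 6. In list 1 it held 10.3 peaks per Mb (exact Poisson 95% interval 9.31 to 11.3) against 9.25 (8.70 to 9.82) over the 116 Mb of the rest. In list 2 it held 7.0 per Mb (6.20 to 7.87) against 6.91 (6.44 to 7.41). The ratios of stretch to rest were 1.11 in list 1 (exact 95% interval 0.989 to 1.25) and 1.01 in list 2 (0.880 to 1.16), both including equal density within counting error. For scale, the 10 chromosomes together held 9.90 peaks per Mb in list 1 and 7.12 in list 2. Intervals cover counting error only and treat peaks as independent.

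The even total hid a steep contrast along the stretch. In both duplicates the stretch ran from the emptiest to the fullest complete 10 Mb block of the chromosome. From 10 to 20 Mb there were 58 list 1 peaks and 30 list 2 peaks, 0.627 and 0.434 times the density of the rest. From 20 to 30 Mb the counts were 113 and 65, and from 30 to 40 Mb they were 105 and 82. From 40 to 50 Mb they reached 135 and 103, 1.46 and 1.49 times the density of the rest. Among the 16 complete 10 Mb blocks of chromosome 6, the block from 10 to 20 Mb had the fewest peaks and the block from 40 to 50 Mb the most, in either list.

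**Figure D1:**
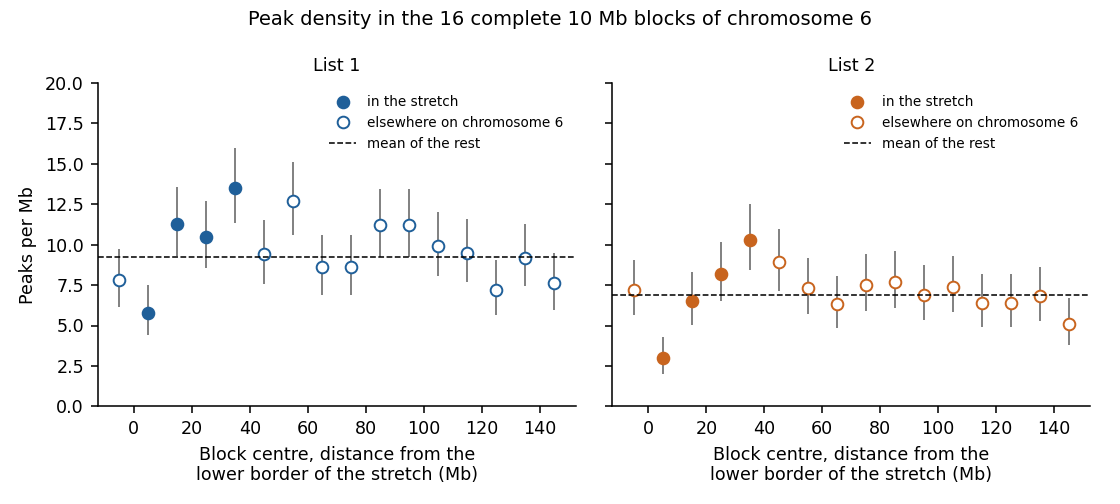
Peaks per Mb in each complete 10 Mb block of chromosome 6, by list, against the distance of the block's centre from the lower border of the stretch in Mb. Filled points lie in the stretch, open points elsewhere, bars are exact Poisson 95% intervals and the dashed line is the mean of the rest. The first filled point is the lowest on the chromosome (5.80 and 3.00 per Mb) and the last is the highest (13.5 and 10.3).

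The sparse block was also near the bottom of the whole genome. All chromosomes together had 201 complete 10 Mb blocks, with a median of 96 peaks in list 1 and 69 in list 2. The 30 list 2 peaks at 10 to 20 Mb were the fewest of the 201 blocks, and the next block up held 41. Its 58 list 1 peaks were the second fewest, above a block with 56. The dense end was less extreme, since the 135 and 103 peaks at 40 to 50 Mb were only the 16th and the 10th highest counts of the 201.

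The lowest counts lay at the very start. From 10 to 15 Mb there were 17 list 1 peaks, 3.4 per Mb (1.98 to 5.44), and 6 list 2 peaks, 1.20 per Mb (0.440 to 2.61). From 15 to 20 Mb there were 41 and 24. In list 2 the climb then went on through 29, 36, 36 and 46 peaks per 5 Mb to 55 at 40 to 45 Mb, before 48 in the last 5 Mb. List 1 rose in a less regular way, with 33 peaks at 20 to 25 Mb, 80 at 25 to 30 Mb, 56 and 49 in the next pair of blocks, then 77 and 58. As a result the middle peak of list 2 lay further along, at 36.6 Mb, than that of list 1, at 32.7 Mb. The first 20 Mb held 41.6% of list 1 peaks and 33.9% of list 2 peaks.

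**Figure D2:**
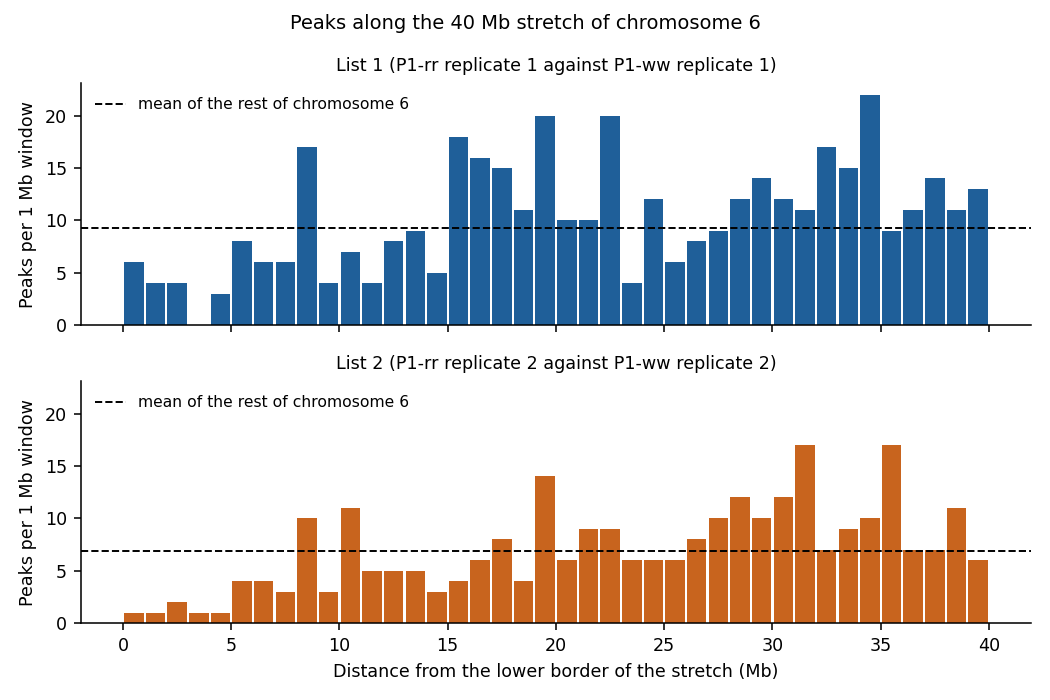
Number of peaks in each of the 40 windows of 1 Mb, against the distance from the lower border of the stretch in Mb, with list 1 above and list 2 below. Dashed lines give the mean of the rest of chromosome 6 (9.25 and 6.91 per Mb). The first 5 windows hold at most 6 list 1 peaks and at most 2 list 2 peaks each.

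At the scale of 1 Mb the counts were uneven. The window at 13 to 14 Mb held 0 list 1 peaks and 1 list 2 peak. By counting error a count of 0 allows up to about 3, taken as an upper 95% limit alone and not as the intervals given elsewhere. The fullest list 1 window was 44 to 45 Mb with 22 peaks, where list 2 had 10. The fullest list 2 windows were 41 to 42 Mb and 45 to 46 Mb with 17 each, where list 1 had 11 and 9. Inside the sparse block a single window stood out in both duplicates, at 18 to 19 Mb, with 17 list 1 and 10 list 2 peaks. The variance of the window counts was 2.72 times their mean in list 1 and 2.39 times in list 2, against 1.99 and 1.43 over 116 windows of the rest. Counts of the duplicates moved together over the 40 windows, with Pearson's r of 0.52 and Spearman's rho of 0.62. Over the windows of the rest r was 0.46 and rho 0.40. Windows of 1 chromosome share its sequence and are not independent, so these correlations are descriptions. Without the windows from 10 to 20 Mb, r was 0.20 and rho 0.25 over 30 windows, so the sparse block carried much of this likeness.

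Gaps, meaning the distance from the end of a peak to the start of the next, were mapped within each list and then over both. List 1 had 7 gaps of 500 kb or more that touched the stretch. They filled 13.3% of it, against 11.04% of the rest filled by 20 gaps. List 2 had 14, which filled 31.5% of the stretch against 15.2% of the rest filled by 26. In list 2, 9 of the 14 began before 30 Mb, and in list 1 4 of the 7. The median gap, by contrast, was shorter in the stretch than in the rest. It was 57.8 kb in the stretch and 65.4 kb in the rest for list 1, and 73.8 and 95.03 kb for list 2.

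The longest list 1 gap of the stretch ran from 12388232 to 14119016. It measured 1.73 Mb, 17.8 times the mean gap of the list in the stretch, and was the longest list 1 gap on any of the 10 chromosomes. It was not wholly empty in the other duplicate, which had 2 peaks there. These were the list 2 peaks at 12752025 to 12752538, with a score of 63.39, and at 13786165 to 13786364, with a score of 260.67. The next gaps of list 1 were at 33355973 to 34110982 (755.0 kb) and 31054633 to 31665674 (611 kb). After them came the gaps at 14149603 to 14749723 (600.1 kb) and 30450325 to 31003315 (553 kb). Only the first exceeded 1 Mb, and only the third held no list 2 peak.

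List 2 had 6 gaps of 1 Mb or more in the stretch, 5 of them within the first 10 Mb. The 116 Mb of the rest held 1, which at 1.85 Mb was longer than any of the 6. The longest in the stretch ran from 14235099 to 15677203 (1.44 Mb). It was the second longest list 2 gap of chromosome 6 and the fourth longest of the 10 chromosomes. It held 3 list 1 peaks. The next were at 18522367 to 19759332 (1.24 Mb), 16271206 to 17500304 (1.23 Mb), 24176612 to 25390295 (1.21 Mb) and 12752539 to 13786164 (1.03 Mb). The first 3 of these held 8, 4 and 10 list 1 peaks, and the last held 0. The gap of 1.24 Mb was thus a gap of the second duplicate only. Its 8 list 1 peaks included high scores, such as 2562.13 at 18869764 to 18869963 and 2439.96 at 18979593 to 18979792.

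Most long gaps of one duplicate were interrupted by the other. Of the 14 list 2 gaps of 500 kb or more, 13 contained at least 1 list 1 peak, and they held 61 in all, 4.84 per Mb. Of the 7 list 1 gaps, 5 contained a list 2 peak, and they held 10 in all, 1.89 per Mb. Both figures lie below the density of the other list over the stretch, which was 10.3 and 7.0 per Mb. From 10 to 20 Mb, which 7 of the list 2 gaps and 2 of the list 1 gaps touched, the densities were nearer, at 5.80 per Mb in list 1 and 3.00 in list 2.

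Only 4 intervals of 500 kb or more were free of peaks in both duplicates. The longest, from 12752539 to 13786164, measured 1.03 Mb and was the second longest shared gap of the 10 chromosomes, where only 2 reached 1 Mb. The others were at 31054633 to 31665674 (611 kb), 14235099 to 14749723 (515 kb) and 24721469 to 25228529 (507 kb), and the fifth longest, at 33355973 to 33828984, measured 473 kb. The 4 intervals came to 2.67 Mb, or 6.67% of the stretch, and the rest had 3 such gaps over 1.47% of its length. From 40 to 50 Mb there was none in the joint map, and list 1 alone had none either, while list 2 alone had 1, of 621 kb. Over the stretch the median joint gap was 33.1 kb, against 37.6 kb in the rest.

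**Figure D3:**
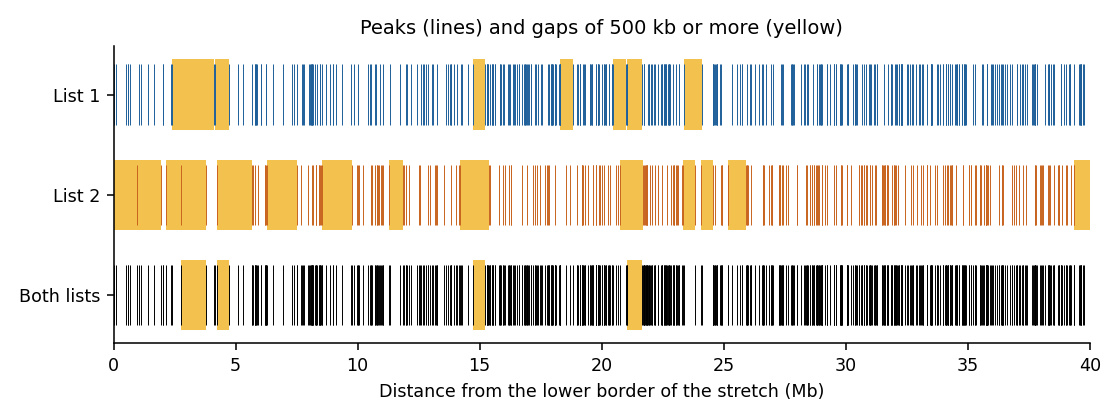
Map of the stretch, with the distance from its lower border in Mb on the horizontal axis, 1 thin line per peak and yellow bars for gaps of 500 kb or more, for list 1, list 2 and both lists together. List 2 shows 14 yellow bars, most of them on the left, list 1 shows 7, and 4 remain when the lists are laid over each other.

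At the borders the positions just inside and outside were as follows. In list 1 the lower border fell between peaks at 9879376 to 9879575 (score 328.46) and 10011631 to 10011830 (score 3100). The upper border fell between peaks at 49748911 to 49749110 (score 74.8) and 50017570 to 50017769 (score 1723.86). In list 2 the lower border fell inside a gap of 959 kb, between a peak at 9985506 to 9985705 (score 80.32) and the first member at 10944214 to 10944413 (score 186.19). Its last member was at 49986311 to 49986518 (score 100.66), and the next peak at 50127773 to 50128005 (score 111.06). The 10 Mb below the border held 78 list 1 and 72 list 2 peaks, so the drop into the sparse block was larger in list 2.

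Peaks of the stretch scored about as high as those of the rest. The score is the authors' own value from the peak caller, and its scale is not stated, so it is read within a list only. In list 1 the median was 282.63 in the stretch (interquartile range 152.6 to 672.49) and 282.63 in the rest (152.6 to 621.33). In list 2 it was 66.7 (50.4 to 111.06), against 70.05 (51.96 to 111.47) in the rest. The 95% rank intervals of these medians overlapped, at 237.92 to 328.46 and 237.92 to 282.63 in list 1, and at 60.21 to 75.4 and 66.62 to 75.09 in list 2. By block, list 2 medians were 93.1, 84.9, 63.0 and 60.5 from 10 to 50 Mb, lower where peaks were denser. Their interquartile ranges overlapped widely, at 55.4 to 150.8, 53.9 to 124.6, 52.0 to 111.1 and 46.9 to 91.7. List 1 medians were 282.63, 260.13, 282.63 and 328.46 and did not follow the order of the list 2 medians. No test was run on scores, since peaks are not replicates.

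Strong peaks were present at about the share of the whole lists. Of the members, 38 in list 1, or 9.25% (95% Wilson interval 6.81 to 12.4), were in the highest-scoring 10% of their list, where ties brought the share over all peaks to 10.3%. In list 2 there were 28, or 10.0% (7.01 to 14.1), against 10.2% over all peaks. The top score of list 1 members was 3100, which 17 of them shared, so it does not rank them. By position the first 5 of these 17 were at 10011631 to 10011830, 19743356 to 19743555, 25555655 to 25555854, 27923800 to 27923999 and 29516746 to 29516945. The first pair lay in the sparse block, so this block was not without top scores.

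In list 2 the highest-scoring member was at 40193217 to 40193416, with a score of 585.22, the 44th of 14719 peaks. It was followed by 39783468 to 39783667 (434.96), 29913774 to 29913973 (379.63), 34064970 to 34065169 (339.14) and 28987571 to 28987770 (296.2). All 5 were 200 bp wide and lay above 28 Mb. None of the 5 overlapped a list 1 peak, where only 3.08% of all list 2 peaks did. Closely below them was the best member of the sparse block, at 18123323 to 18123522 with a score of 295.5, which the naming rule did not pick and which was chosen after its value was seen.

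The sparse block held more wide peaks than its surroundings in list 1. Nearly all list 1 peaks are exactly 200 bp wide, the smallest width in the lists: 378 of 411 in the stretch, or 92.0% (Wilson interval 88.9 to 94.2), against 95.3% (93.8 to 96.4) in the rest and 95.5% over all peaks. From 10 to 20 Mb the share was 75.9% (63.5 to 85.0), since 14 of the 58 peaks were wider. This was the highest share of wider peaks, 24.1%, among the 201 blocks of 10 Mb, where the median was 4.35% and the next highest 11.4%. From 20 to 50 Mb 19 of 353 were wider, and 94.6% (91.7 to 96.5) measured 200 bp. Of the 14, 6 measured 201 to 210 bp. Counting only peaks over 210 bp, the share was 13.8% (8 of 58, Wilson interval 7.16 to 24.9), against 4.28% in the rest, and 10.0% in the next highest of the 201 blocks. Both comparisons were chosen after the values were seen and were not tested.

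The wider list 1 peaks of the sparse block were gathered in a few places. Of the 14 peaks from 10 to 12.5 Mb, 8 were wider than 200 bp, and 5 of the 16 from 15 to 17.5 Mb. From 17.5 to 20 Mb, which held the fullest window of the block, only 1 of 25 was. They measured 201 to 591 bp with a median of 307.5 bp, from the peak at 15688313 to 15688513 (201 bp, score 1126.89) upwards. The widest was at 12025774 to 12026364 (591 bp, score 66.47) and the highest-scoring at 11140660 to 11141050 (391 bp, score 1782.31). Their median score was 154.69, against 305.5 for the 200 bp peaks of the same block. Over the whole stretch the widest list 1 peak, of 600 bp, lay at 45220267 to 45220866 with a score of 320.24. None of the 33 wider list 1 members overlapped a list 2 peak, but only 2.23% of all list 1 peaks did, so this count sets them apart in nothing.

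In list 2 the sparse block did not share the excess of wide peaks, and narrow peaks were least common at the dense end. A total of 76 of 280 members, or 27.1% (22.3 to 32.6), were 200 bp wide, against 31.6% (28.5 to 34.9) in the rest and 29.8% over all peaks. The share was 40% (24.6 to 57.7) from 10 to 20 Mb, an interval that includes the share of the rest, 35.4% and 29.3% in the next blocks, and 16.5% (10.6 to 24.9) from 40 to 50 Mb. In that last block 86 of 103 peaks were wider than 200 bp, or 83.5%, the second highest share of the 201 blocks. At 10 to 20 Mb 18 of 30 were wider, or 60%, the 16th lowest share, where the median block had 69.8%. The sparse block thus lay on opposite sides of the median block in list 1 and list 2. Wider list 2 members scored lower than those of 200 bp, with medians of 55.17 and 111.6, and the rest had 59.18 and 116.93. The widest list 2 member, 985 bp, was at 39026123 to 39027107 with a score of 57.12. In list 2 the share of 200 bp peaks and the median score thus both fell from block to block as density rose. The intervals of that share overlapped from 10 to 40 Mb, with 24.9 to 47.5% at 20 to 30 Mb and 20.5 to 39.9% at 30 to 40 Mb. Median width did not rise at every step, at 223, 359, 344 and 403 bp. Whether width, score and density depend on each other was not tested.

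**Figure D4:**
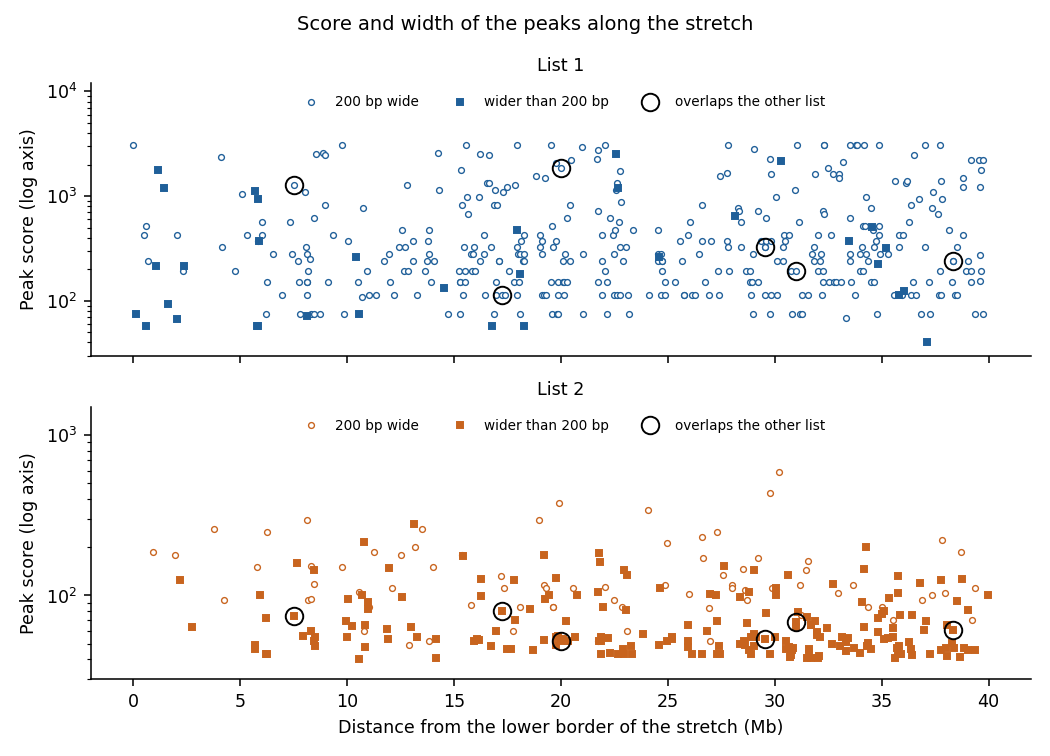
Score of every peak on a log axis against the distance from the lower border of the stretch in Mb, with list 1 above and list 2 below. Open circles are 200 bp peaks, filled squares are wider ones and black rings mark peaks that overlap the other list. In list 1 the 14 wider peaks of the first 10 Mb stand among few open circles, in list 2 wide peaks of low score crowd the right side, and 6 rings appear in each panel.

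Few sites were found in both duplicates. Of the members, 6 in list 1 shared 1 bp or more with a peak of list 2, or 1.46% (Wilson interval 0.671 to 3.15), beside 2.23% over all list 1 peaks and 2.51% (1.73 to 3.63) in the rest. In list 2 the 6 partners were 2.14% (0.986 to 4.60), beside 3.08% over all list 2 peaks and 3.36% (2.32 to 4.85) in the rest. With 6 sites the intervals of stretch and rest were wide and overlapped in each list, and a difference was not tested. Both shares count the same 6 pairs of peaks. The sites were spread along the stretch, with 1, 2, 1 and 2 in its successive 10 Mb blocks.

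The shared site of the sparse block lay at 17500305 to 17500882 and closed the list 2 gap of 1.23 Mb. Its list 1 peak scored 1265.97 and lay wholly inside its list 2 peak, which was 578 bp wide and scored 74.06. The highest list 1 score among the 6, 1841, belonged to the site at 29996198 to 29996568, where the list 1 peak also lay inside the list 2 peak, of score 51.79. At 27262712 to 27262960 the peaks overlapped by 186 bp, with scores of 112.54 and 80.35 and centres 31.5 bp apart. These 3 sites had the closest centres, at most 100 bp apart.

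The other 3 sites met only partly. At 39527386 to 39528109 the peaks overlapped by 84 bp (scores 328.46 and 53.67), at 48333170 to 48333612 by 128 bp (237.92 and 61.12) and at 41009495 to 41010043 by 28 bp (194.5 and 68.47). All 6 list 2 peaks at shared sites were wider than 200 bp, where 29.8% of all list 2 peaks measured 200 bp. All 6 list 1 peaks measured 200 bp, as did 95.5% of all list 1 peaks. No peak of these sites was in the highest-scoring 10% of its list, which with ties held 10.3% of list 1 and 10.2% of list 2. The median shared region measured 496 bp.

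Beyond these sites, most peaks of the duplicates lay far from each other. The nearest list 2 centre to a list 1 member was at a median of 47.1 kb, and 37 of 411 (9.002%) had one within 5 kb, against 39.5 kb and 11.4% in the rest. From list 2 to list 1 the median was 27.5 kb, and 33 of 280 (11.8%) had one within 5 kb, against 31.7 kb and 14.1%. The most isolated list 1 member stood 597 kb from any list 2 centre. It lay at 15080659 to 15080858, inside the longest list 2 gap of the stretch, with a score of 1044.51.

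Within a list, tight groups of peaks were small. No 10 kb of the stretch held more than 3 peak centres in either list. There were 7 such triplets in list 1 and 3 in list 2, and only the first of each list by position is given. In list 1 the first of the triplets spanned 18104971 to 18111529, with scores of 152.6, 72.1 and 282.63. In list 2 it spanned 18310255 to 18314741, with scores of 60.21, 151.71 and 95.69. These first triplets both fell in the full window at 18 to 19 Mb, 198.7 kb apart. That nearness rests on taking the first by position, since the other triplets lay elsewhere. None of their peaks was shared, beside shares of 2.23% and 3.08% over all peaks of list 1 and list 2. Of the members, 4.87% in list 1 and 4.29% in list 2 had a neighbour of the same list within 1 kb, against 3.63% and 2.99% in the rest.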

How the data were processed

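ChIP-seq with P1 antibodies was run on 4 pericarp libraries, 2 per genotype. The submitters' processing notes name CASAVA (version 1.4) and Bowtie, without their roles, and peak names in the deposited lists are those of MACS. For its settings and for the build, "not given in the sources used here" applies. Per the labels, the authors made a list from each same-numbered pair of libraries, and the score is the value the authors deposited, on a scale not stated. Both lists were used in full, with 0 value columns left unmapped. Starts, counted from 0, are printed counted from 1.

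The rest of chromosome 6 ran to the largest peak end (169138750) without the stretch and without 89 to 102 Mb, whose borders the labels give on build AGPv2. Densities carry exact Poisson intervals, density ratios exact conditional binomial intervals, shares Wilson intervals and medians binomial rank intervals, all at 95% (scipy 1.17.1). They cover counting error only. No test was run, since the stretch was chosen by peak position and peaks are not replicates. Counts, gaps and overlaps (1 bp or more) used Python 3.11.15 with pandas 2.3.3 and numpy 2.4.6, figures matplotlib 3.10.9, and the functions were tested on simulated data with planted gaps and overlaps. Regions named were the top 5 scores per list, shared sites, border peaks, the 5 longest gaps per map and extreme 1 Mb windows. Also named was the tightest group per list, the first by position where several tied. The stretch, lists and rules were chosen with earlier results of these data known. No genome of the files' build was used here, so sequences, genes and alignability of the gaps were not analysed.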

Additional observations from a re-analysis of the deposited data

How the results depend on the processing

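Of 55 alternative values, 29 were taken as near the main value and 26 were not. Near meant within the counting interval, or within 1.5 times for a count. The window correlation is not a count. For it 0.446 (500 kb windows), 0.659 (2 Mb windows) and 0.471 (higher-scoring 50%) were taken as near, and 0.204 (20 to 50 Mb) was not. The density ratios stayed at 1.03 to 1.15 in list 1 and 0.956 to 1.11 in list 2 with other borders, backgrounds, the higher-scoring 50% or peaks within 1 kb merged. With 10 to 20 Mb left out, chosen after seeing the data, they were 1.27 and 1.21, the window correlation was 0.20 and the share of 200 bp peaks in list 1 was 94.6%. The share of wider list 1 peaks at 10 to 20 Mb was 13.8% when only those over 210 bp counted, also chosen after seeing the data. With 10 to 20 Mb left out, gaps of 500 kb or more numbered 2 in both lists together, 5 in list 1 and 7 in list 2. The gap counts for list 1, list 2 and both were 35, 38 and 23 from 250 kb, 1, 6 and 1 from 1 Mb, and 19, 22 and 10 in the higher-scoring 50%, by construction. Without replicate 1 or 2 the joint map had 14 or 7 gaps, since a single list holds fewer peaks. Results of a single list have no value without it. Shared members of list 1 and of list 2 numbered 2 with 50% of both peaks, 3 with centres within 100 bp, 13 within 500 bp, and 1 in the higher-scoring 50% of both lists. No paired analysis was possible because the lists hold contrasts made within a replicate number and no values for single libraries. With 30 list 2 peaks at 10 to 20 Mb, and no reads, modest differences there cannot be seen.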
